A study of Mus musculus with 7 samples.

Results

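Of 54347 genes in the deposited table, 8 were taken for this description by their symbols: the CIP/KIP inhibitors of cyclin-dependent kinases (CDKs) Cdkn1a, Cdkn1b and Cdkn1c, the INK4 inhibitors Cdkn2c and Cdkn2d, and the RB-family genes Rb1, Rbl1 and Rbl2. Each of the 8 was found on 1 row, and all 8 passed the filter on low counts that left 15372 genes for testing. They were measured by RNA sequencing in LT-HSCs (long-term haematopoietic stem cells), the marrow cells able to sustain the blood system for life, sorted from female mice. The groups were 4 Emcn+/+ mice (WT) and 3 Emcn-/- mice (KO), described as littermates. Both groups carry the strain label C57BL/6N-EMCN em1(IMPC)Wtsi /WtsiH, no Cre driver or treatment is named, and the sources used here do not give the age of the mice. A library came from a single mouse and 3000 to 5000 cells. Endomucin, the product of Emcn, is a cell-surface sialomucin that the series title links to quiescent stem cells. The question put to the 8 genes is whether the transcripts that hold stem cells in quiescence differ between the genotypes.

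A cell leaves quiescence when cyclin D with CDK4 or CDK6, and then cyclin E with CDK2, phosphorylate the RB-family pocket proteins. Unphosphorylated pocket proteins bind E2F transcription factors and keep genes for DNA synthesis and mitosis off. INK4 proteins block CDK4 and CDK6 alone, whereas CIP/KIP proteins bind whole cyclin-CDK complexes, those of CDK2 above all. In haematopoietic stem cells the inhibitors p57 and p27 are known for holding cells out of the cycle, and p130 with the MuvB proteins forms the DREAM complex of resting cells. Much of the control of p27 and of the pocket proteins runs through protein stability and phosphorylation, which transcript counts do not measure.

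The regulatory context of 2 of the genes is shown because it ties them to the other genes described further on: p53 activates Cdkn1a, and Rbl1 is itself an E2F target. RefSeq promoter windows in GRCm38.p6, from 250 bases before to 50 bases after an annotated start, were given for 6 of the 8 genes, with 8 windows in all (Cdkn1c and Rb1 had none). They were searched on both strands for E2F motifs (TTTCGCGC, TTTCCCGC, TTTGGCGC and TTTGCCGC), the CHR element of the DREAM complex (TTTGAA), the FoxO core (GTAAACA) and the p53 half-site. Capitals mark the matches, and each window is written from 5′ to 3′ on the strand of the gene.
Cdkn1a, upstream start, chr17:29090729-29091028, plus strand: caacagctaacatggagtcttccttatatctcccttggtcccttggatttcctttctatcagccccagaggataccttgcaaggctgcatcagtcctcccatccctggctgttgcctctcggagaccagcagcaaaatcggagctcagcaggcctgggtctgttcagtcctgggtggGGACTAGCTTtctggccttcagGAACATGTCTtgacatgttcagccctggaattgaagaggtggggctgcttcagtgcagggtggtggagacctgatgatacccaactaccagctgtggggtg
Rbl1, chr2:157204485-157204784, minus strand: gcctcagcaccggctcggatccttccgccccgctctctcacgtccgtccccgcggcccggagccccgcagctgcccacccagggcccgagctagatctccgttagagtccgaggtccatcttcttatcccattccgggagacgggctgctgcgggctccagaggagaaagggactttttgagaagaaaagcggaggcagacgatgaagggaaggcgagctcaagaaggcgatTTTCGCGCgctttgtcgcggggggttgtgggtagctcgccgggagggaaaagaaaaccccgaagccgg
The Rbl1 window held 1 E2F match, whose first base lay at position -18 from the start. An E2F match was present in 2.26% of all 32817 windows of this length. The upstream Cdkn1a window held 2 p53 half-sites, at positions -73 and -51, and 8.36% of all windows held at least 1. The window at the downstream Cdkn1a start had no match to any of these motifs. Cdkn2d held 1 p53 half-site and Rbl2 held 1 CHR element, which was present in 17.9% of windows. Neither the Cdkn1b window nor either Cdkn2c window matched any motif, and the FoxO core, present in 3.65% of all windows, matched in none of the 8.

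Library totals ran from 6444134 to 11101774 counts. Emcn had 130, 327, 223 and 216 counts in WT and 1, 0 and 0 in KO, which matches the labels. The WT library wt_284 stood apart: its 16 neutrophil and monocyte markers summed to 14789 CPM (counts relative to library size, after TMM scaling), against 254 to 1292 CPM across the remaining WT mice and 195 to 681 CPM in KO. Its 8 erythroid markers summed to 1152 CPM, against 108 to 281 and 96.0 to 143 CPM. The 10 defining stem cell markers, among them Kit, Slamf1, Procr and Hlf, were all detected in every library. They summed to 1506 CPM in wt_284, 2259 to 2608 CPM across the remaining WT mice and 2323 to 2533 CPM in KO. In such bulk libraries fewer cells of a type and less RNA per cell cannot be told apart. Results are therefore given with and without wt_284.

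Per kilobase of merged exons, the scale on which different genes can be compared, the pocket proteins Rbl2 (p130) and Rbl1 (p107) had the highest levels of the 8 genes in each library. Rbl2 stood at 23.9 ± 1.44 CPM per kb in WT (SD, n = 4) and 25.5 ± 1.12 in KO (SD, n = 3). Rbl1 stood at 20.6 ± 2.79 in WT and 22.3 ± 3.11 in KO, so these neighbours overlapped, and Rbl1 was the higher one only in wt_284. Among tested genes ranked per length, their lowest percentiles in any library were 85.5 and 84.0.

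Cdkn1b (p27) came next in every library, at 15.5 ± 3.02 CPM per kb in WT and 11.9 ± 1.62 in KO. Cdkn1c (p57) had 10.6 ± 2.84 and 10.3 ± 1.10, and Cdkn2d (p19) had 10.9 ± 5.18 and 7.41 ± 0.831. Rb1 had 8.87 ± 3.55 and 6.16 ± 0.110. Over the WT libraries the levels per length of Cdkn1c, Cdkn2d and Rb1 did not differ beyond their spread. Cdkn1c took place 4 in 6 of the 7 libraries and place 7 in wt_284. Cdkn2c (p18) had 6.27 ± 3.00 and 3.52 ± 2.09, and ran from 1.89 to 9.43 over the libraries, or from percentile 25.6 to 65.5 of tested genes. The median of all tested genes was 5.07 to 5.45 CPM per kb in a library. Cdkn1a (p21) was last in every library, at 0.980 ± 0.958 in WT and 0.225 ± 0.177 in KO. With the longest coding transcript as the length, Rbl2 was first and Rbl1 second in every library and Cdkn1a stayed last, while Cdkn1c (15.7 CPM per kb) passed Cdkn1b (15.2) in wt_312.

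**Figure D1:**
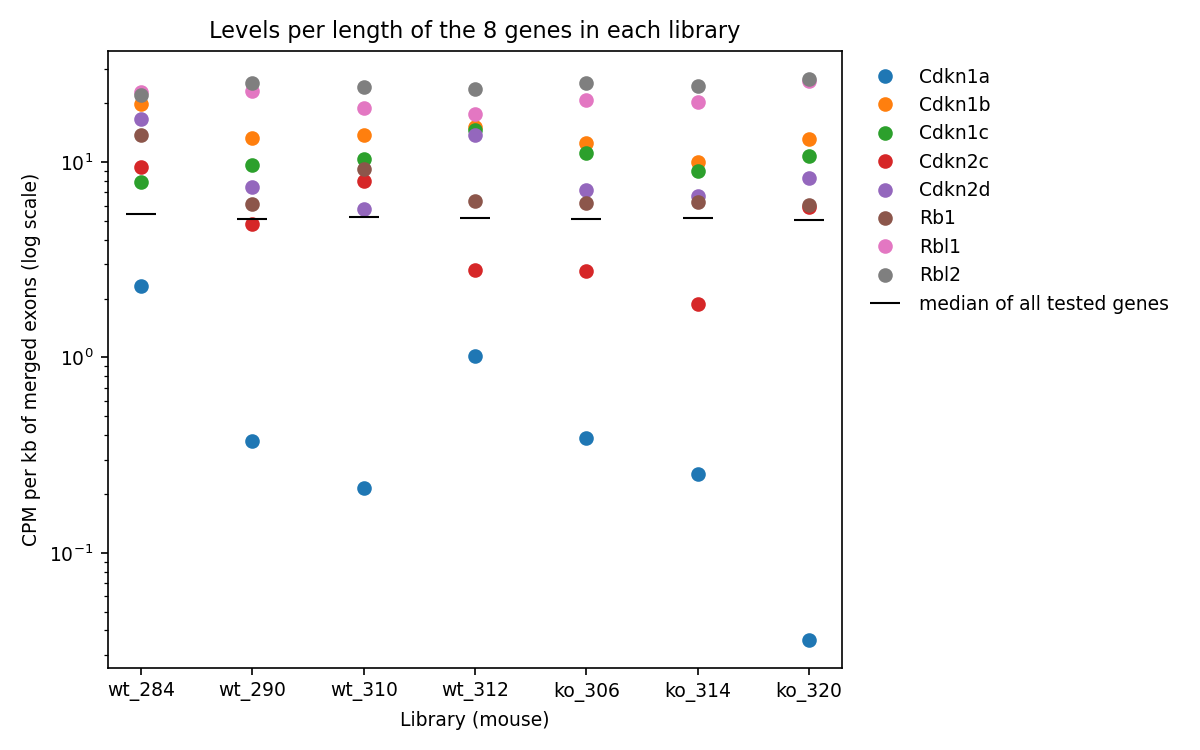
Level per length (CPM per kb of merged exons, log scale) of the 8 genes in each of the 7 libraries, as points, with the median of all tested genes in each library as a dash. Rbl2 and Rbl1 lie at the top between 17.6 and 26.7 CPM per kb, Cdkn1b comes next in every library, and Cdkn1a lies below all others at 0.0358 to 2.32.

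None of the 8 genes passed the test between KO and WT. In edgeR's quasi-likelihood test over all 7 libraries 0 of 8 had a Benjamini-Hochberg adjusted p under 0.05, beside 0.00651% of all tested genes (Emcn alone), and each adjusted p was 0.992. Without wt_284 again 0 of 8 passed, beside 0.0201% of tested genes, and every adjusted p was 0.999. Before adjustment, 0 of 8 had a p under 0.05 with all libraries, beside 3.27% of tested genes, and 0 of 8 without wt_284, beside 2.21%. DESeq2 called 0 of 8, beside 0.0651% of tested genes, and gave 1 of 8 an unadjusted p under 0.05 (Cdkn1a), beside 4.42%. Limma-voom with quality weights called 0 of 8, beside 0.0% of tested genes, and gave 1 of 8 an unadjusted p under 0.05 (Cdkn2c), beside 2.86%.

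Of the log2 fold changes (KO minus WT), 6 of 8 were below 0 and their median was -0.45, where 52.4% of all tested genes were below 0 with a median of -0.02. Without wt_284 again 6 of 8 were below 0, beside 49.9% of tested genes, and the median was -0.23 against 0.00 for all tested genes. Rbl1 and Rbl2 were the 2 genes above 0, in both fits. How closely a difference was bounded varied among them. The 95% interval lay within 2-fold in either direction for 4 genes, Cdkn1b, Cdkn1c, Rbl1 and Rbl2, as it did for 49.6% of tested genes and 76.5% of those with a mean of at least 10 CPM. Without wt_284 it did so for 5, the same 4 and Rb1, and the share of all tested genes was not computed for that fit.

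**Figure D2:**
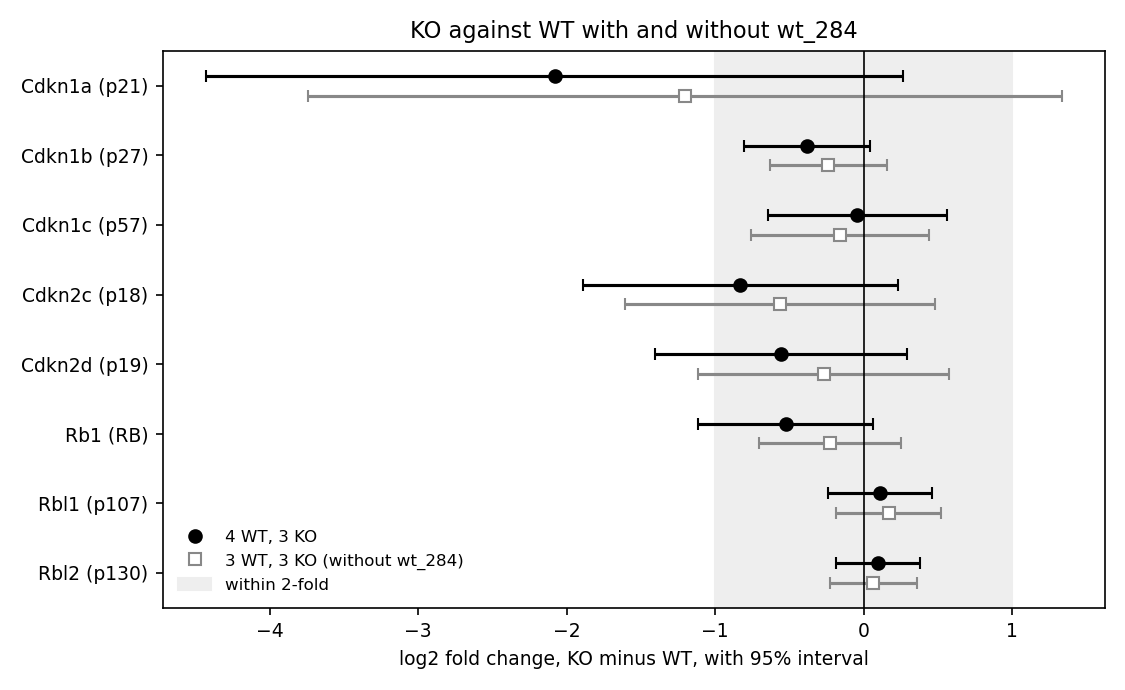
Log2 fold change, KO minus WT, of the 8 genes with 95% intervals, from all 7 libraries (filled circles) and without wt_284 (open squares). The grey band marks 2-fold in either direction. Every interval includes 0, and the intervals of Rbl1 and Rbl2 are the narrowest while that of Cdkn1a reaches from -4.43 to 0.27.

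Among the CIP/KIP inhibitors, Cdkn1b (ENSMUSG00000003031.14, chromosome 6, 134920401 to 134925513, plus strand, GRCm38) encodes p27, which binds and blocks cyclin E with CDK2. Its level was 90.5, 60.4, 62.7 and 69.1 CPM in the libraries wt_284, wt_290, wt_310 and wt_312, and 56.9, 45.8 and 59.7 CPM in ko_306, ko_314 and ko_320, the order kept below. Every KO library was below every WT library, which was so for 2.43% of tested genes, and wt_284 was the highest. The closest libraries of the 2 groups, wt_290 and ko_320, were 0.702 CPM apart, less than the counting SD of either (2.39 and 2.76 CPM). The log2 fold change was -0.38 ± 0.20 (SE), with a 95% interval from 0.571-fold to 1.03-fold and an unadjusted p of 0.0728. Without wt_284 it was -0.24 ± 0.19, with an unadjusted p of 0.220. Leaving out the highest WT library cannot create an overlap, so the groups were apart there too, as for 3.62% of tested genes.

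Cdkn1c (ENSMUSG00000037664.13, chromosome 7, 143458339 to 143461050, minus strand) encodes p57, the imprinted CIP/KIP member expressed from the maternal allele. It had 16.1, 19.8, 21.1 and 29.8 CPM in WT, and 22.6, 18.5 and 22.0 CPM in KO. The KO libraries lay inside the WT range, whose lowest value was wt_284 and whose highest was wt_312. Its fold change on the log2 scale was -0.04 ± 0.28 (SE), with a 95% interval from 0.640-fold to 1.47-fold, and -0.16 ± 0.28 without wt_284. Its sign was not stable: it was 0.16 without wt_312 and 0.05 without ko_314. The level of p57 transcript per length relative to p27 was 0.397 in wt_284, 0.733 to 0.963 across the remaining WT mice and 0.823 to 0.902 in KO.

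Cdkn1a (ENSMUSG00000023067.14, chromosome 17, 29090976 to 29100727, plus strand) encodes p21, the inhibitor that p53 induces. It was the least abundant of the 8, with 68, 14, 5 and 28 counts in WT and 16, 6 and 1 in KO. These were 8.24, 1.32, 0.764 and 3.60 CPM in WT and 1.38, 0.895 and 0.127 CPM in KO. The libraries wt_284 and wt_312 were above all KO libraries, while wt_290 and wt_310 were within the KO range. KO minus WT, the log2 difference was -2.08 ± 1.08 (SE), with a 95% interval from 0.0464-fold to 1.20-fold and an unadjusted p of 0.0775. It was -1.20 ± 1.19 without wt_284, -2.76 without ko_306 and -1.06 in limma-voom, so that its size rested on the libraries and the method used. Without wt_284 the 95% interval on the log2 scale ran from -3.74 to 1.34.

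Among the INK4 inhibitors, Cdkn2c (ENSMUSG00000028551.14, chromosome 4, 109660876 to 109667189, minus strand) encodes p18, which limits self-renewal divisions of stem cells. It had 25.3, 12.9, 21.5 and 7.58 CPM in WT and 7.49, 5.07 and 15.8 CPM in KO. Of the 12 pairs of a WT and a KO library, KO was lower in 10. The groups overlapped through ko_320, which was above wt_290 and wt_312. The log2 fold change was -0.83 ± 0.49 (SE), with an unadjusted p of 0.113, and -0.56 ± 0.49 without wt_284. Without ko_320 it was -1.39.

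Cdkn2d (ENSMUSG00000096472.2, chromosome 9, 21288410 to 21291407, minus strand) encodes the other INK4 inhibitor, p19. It had 26.3, 11.7, 9.02 and 21.6 CPM in WT and 11.3, 10.6 and 13.1 CPM in KO. The WT libraries fell apart into wt_284 and wt_312, above all KO libraries, and wt_290 and wt_310, beside or below them, the same order as for Cdkn1a. Its fold change on the log2 scale was -0.56 ± 0.39 (SE), with an unadjusted p of 0.178, and -0.27 ± 0.40 without wt_284. The coefficient of variation was 47.5% in WT and 11.2% in KO.

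The remaining INK4 genes were close to undetected. Cdkn2a, whose products p16 and p19ARF restrain CDK4 and MDM2 and accumulate in senescent cells, had 0 counts in all 7 libraries, which allows 0.258 to 0.458 CPM in a library. Cdkn2b, which encodes p15, had 1 count in wt_290 and 0 in the others. These limits cover counting error only. Neither gene was tested.

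Among the pocket protein genes, Rb1 (ENSMUSG00000022105.6, chromosome 14, 73183673 to 73325822, minus strand) encodes RB, the founding member and a tumour suppressor. It had 82.8, 36.9, 55.3 and 38.3 CPM in WT and 37.2, 37.6 and 36.3 CPM in KO. The KO libraries were nearly identical, with an SD of 0.659 CPM where counting error alone gives 1.79 to 2.37 CPM per library. The libraries wt_290 and wt_312 stood at the KO level, and wt_284 and wt_310 above it. KO minus WT, the log2 difference was -0.53 ± 0.27 (SE), with a 95% interval from 0.461-fold to 1.05-fold and an unadjusted p of 0.0768, and -0.23 ± 0.23 without wt_284. As a share of the 3 pocket protein transcripts per length, Rb1 made up 23.4% in wt_284, 11.2% to 17.6% across the remaining WT mice and 10.3% to 12.2% in KO.

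Rbl1 (ENSMUSG00000027641.13, chromosome 2, 157145893 to 157204534, minus strand) encodes p107, the pocket protein of cycling cells and the gene whose promoter held the E2F match. It had 137, 139, 113 and 106 CPM in WT and 124, 122 and 155 CPM in KO. The groups overlapped, and ko_320 was the highest library. The log2 fold change was 0.11 ± 0.16 (SE), with a 95% interval from 0.848-fold to 1.38-fold, and 0.17 ± 0.17 without wt_284.

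Rbl2 (ENSMUSG00000031666.15, chromosome 8, 91070057 to 91123844, plus strand) encodes p130, the pocket protein of resting cells. It had 167, 193, 183 and 179 CPM in WT and 192, 185 and 202 CPM in KO. It varied least of the 8 in WT, with a coefficient of variation of 6.05%, and wt_284 was its lowest library. Its fold change on the log2 scale was 0.10 ± 0.13 (SE), with a 95% interval from 0.879-fold to 1.30-fold, and 0.06 ± 0.14 without wt_284. The ratio of p107 to p130 transcripts per length was 1.04, 0.906, 0.780 and 0.745 in WT (0.867 ± 0.134, SD, n = 4) and 0.818, 0.828 and 0.969 in KO (0.871 ± 0.0844, SD, n = 3). The KO values lay within the WT range. None of the 8 genes had every KO library above every WT library, as 2.43% of tested genes did, or 3.63% without wt_284.

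**Figure D3:**
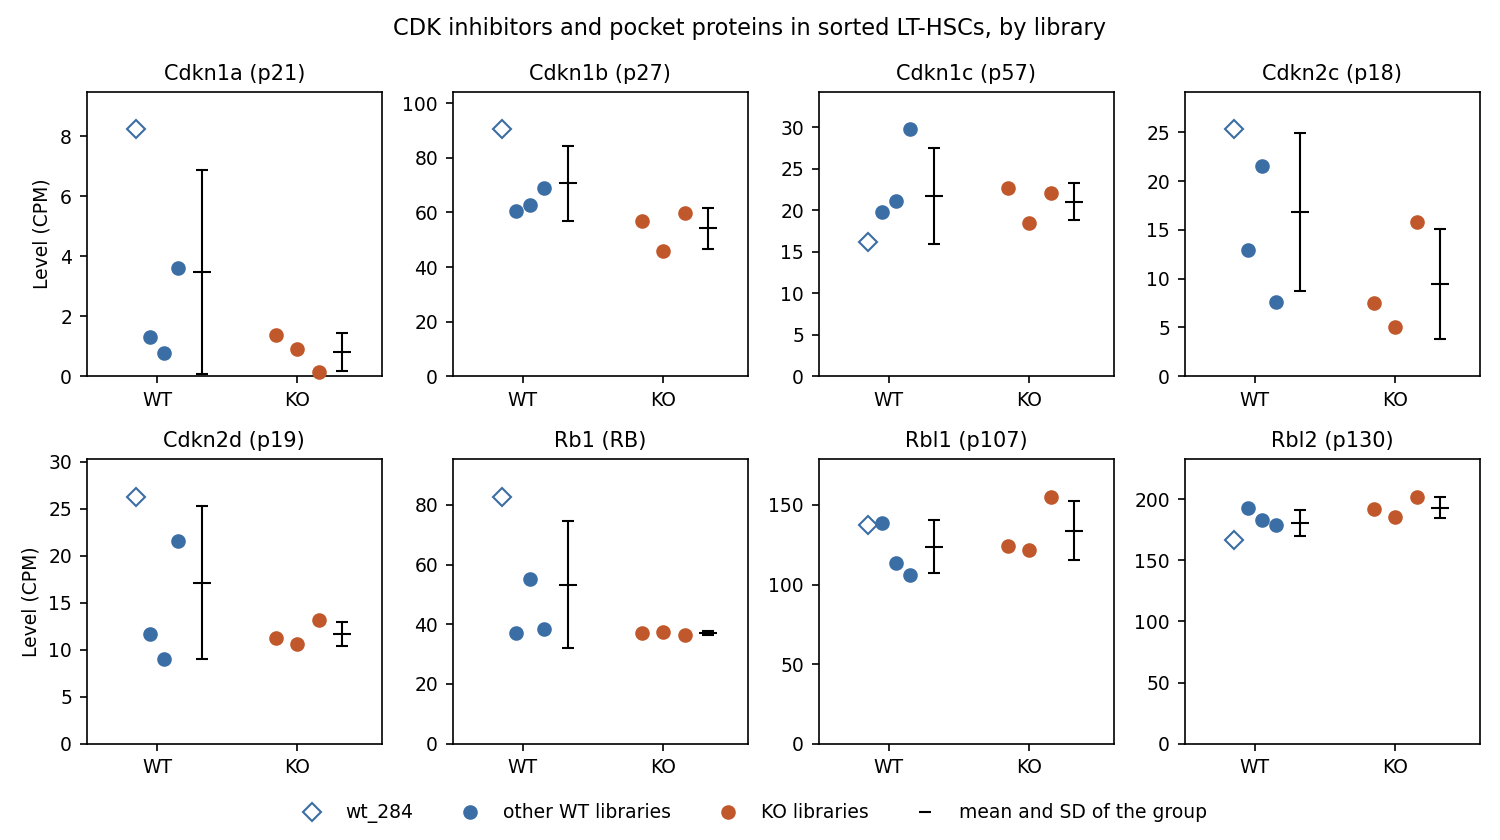
Level (CPM) of each of the 8 genes in the 4 WT and 3 KO libraries, 1 point per mouse, with the group mean and SD beside the points and wt_284 as an open diamond. In Cdkn1a, Cdkn1b, Cdkn2c, Cdkn2d and Rb1 the diamond is the highest point, in Cdkn1c and Rbl2 the lowest, and the KO points lie below all WT points only for Cdkn1b.

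The library with the most neutrophil and monocyte transcripts also held extreme values for most of these genes. Of the 8, wt_284 was the highest of the 7 libraries for 5 (Cdkn1a, Cdkn1b, Cdkn2c, Cdkn2d and Rb1) and the lowest for 2 (Cdkn1c and Rbl2), as it was for 23.1% and 17.6% of tested genes. Against the mean of the other 3 WT libraries its CPM was 4.35 times as high for Cdkn1a, 1.90 times for Rb1, 1.87 times for Cdkn2d, 1.81 times for Cdkn2c and 1.41 times for Cdkn1b. It was 0.684 times as high for Cdkn1c and 0.900 times for Rbl2. On the log2 scale the difference of Cdkn1a exceeded that of 96.4% of tested genes, and that of Cdkn1c lay above 17.6%. The 5 genes that were highest in wt_284 were those with the 5 lowest log2 fold changes between KO and WT. Each of these fold changes moved towards 0 without wt_284. Both follow at least in part from the choice of these genes, because a high WT library raises the WT mean. The part of mature marrow cells in these values was not tested.

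The other genes of the pathway gave no call either. In 8 lists with tested genes, 0 passed in either direction with all libraries or without wt_284. Of 13 cyclins and kinases of G1 and S phase, 7 were above and 6 below 0, with a median log2 fold change of 0.06. Ccne1, the cyclin E1 that p27 inhibits, had 30.2, 10.3, 13.0 and 11.6 CPM in WT and 7.84, 3.88 and 7.13 CPM in KO. Every KO library was below every WT library, as for 2.43% of tested genes. The gene was named for the smallest unadjusted p of its list, a choice that favours such a pattern. Ccne1 had a log2 fold change of -1.36 ± 0.46 (SE) and an adjusted p of 0.992, or -0.87 without wt_284. Ccnd3, a D-type cyclin, had -0.45 ± 0.21, or -0.21 without wt_284, the highest library.

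Of the 10 E2F and DP factors, the partners of the pocket proteins, 1 was above and 9 below 0, with a median of -0.12, and without wt_284 they divided into 5 and 5. E2f2, an activating E2F, had 110 CPM in wt_284, 10.5 to 23.4 CPM across the remaining WT mice and 5.22 to 14.5 CPM in KO. Its log2 fold change was -2.02 ± 0.93 (SE), or -0.86 without wt_284. E2f4, the E2F that p130 and p107 chiefly bind, had -0.43 ± 0.26, or -0.19 without wt_284. Of 7 genes of the MuvB core and its partners, 2 were above and 5 below 0, with a median of -0.20. Without wt_284 the direction turned, with 4 above and 3 below 0 and a median of 0.06. They include Rbbp4 at -0.20 ± 0.17 and Lin37 at 0.29 ± 0.28.

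Of the 11 tested genes for turnover of p27 and p21, 5 were above and 6 below 0, with a median of -0.01. Rnf123, a subunit of the ligase that degrades p27 in G1, had 89.0, 48.7, 47.4 and 46.2 CPM in WT and 37.6, 40.7 and 25.2 CPM in KO. It thus had every KO library below every WT library, as did 2.43% of tested genes. Its log2 fold change was -0.74 ± 0.27 (SE), with an adjusted p of 0.992, and -0.46 without wt_284. Cul1, the scaffold of the SKP2 ligase that degrades p27 at the entry to S phase, had 106.91, 106.98, 88.3 and 91.4 CPM in WT and 122, 134 and 108 CPM in KO. All KO libraries exceeded all WT libraries, as for 2.43% of tested genes, at 0.30 ± 0.15 and an adjusted p of 0.992. Without wt_284 the log2 fold change was 0.35. The closest libraries of the 2 groups, wt_290 and ko_320, had 106.98 and 108.38 CPM. Rnf123 and Cul1 were named for the smallest unadjusted p of their list, a choice that favours groups that do not overlap. Both are genes of p27 degradation and their differences had opposite signs.

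Of 15 tested upstream regulators of the inhibitors, 5 were above and 10 below 0, with a median of -0.15. Klf4, a factor that activates Cdkn1a, had -2.89 ± 1.27 (SE), with 53.1 CPM in wt_284, 2.31 to 11.004 CPM across the remaining WT mice and 1.79 to 3.18 CPM in KO, and -1.18 without wt_284. Foxo4, a forkhead factor that activates Cdkn1b, had -0.41 ± 0.24. Of 10 tested other p53 targets, 2 were above and 8 below 0, with a median of -0.36, or -0.16 without wt_284. Trp53inp1 had -0.52 ± 0.28, or -0.20 without wt_284, and the apoptosis gene Bax had -0.70 ± 0.45.

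E2F targets and mitosis genes are those that pocket proteins hold down. Of 16 E2F targets of S phase, 3 were above and 13 below 0, with a median of -0.08, or -0.023 without wt_284. Cdt1, a replication licensing factor, had -0.53 ± 0.32 (SE), and Rrm2, a subunit of ribonucleotide reductase, had -0.95 ± 0.55, or -0.39 without wt_284. Of 12 mitosis genes, 1 was above and 11 below 0, with a median of -0.46 that was -0.06 without wt_284. Aurka, a mitotic kinase, had -0.70 ± 0.32, or -0.44 without wt_284. Ube2c, an enzyme of the anaphase-promoting complex pathway, had -1.01 ± 0.46, or -0.39 without it. The 12 mitosis genes summed to 3478 CPM in wt_284, 1184 to 2217 CPM across the remaining WT mice and 1281 to 1924 CPM in KO. The WT range enclosed all KO libraries both with and without wt_284.

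**Figure D4:**
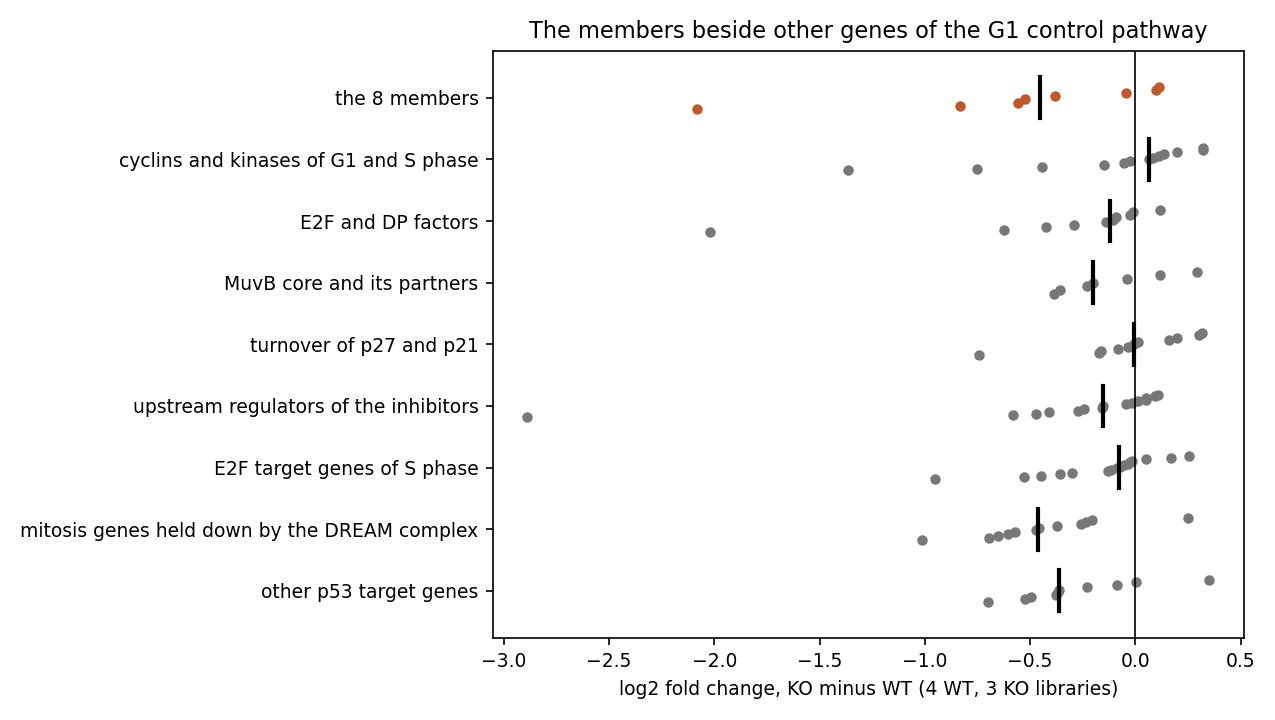
Log2 fold change, KO minus WT over all 7 libraries, of the 8 members (top row) and of each tested gene in 8 lists of the same pathway, 1 point per gene, with the median of each list as a vertical bar. The medians lie between -0.46 (mitosis genes) and 0.06 (cyclins and kinases), and no gene shown passed the test.

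Among 9896 genes with a mean of at least 10 CPM, those whose log2 CPM over the 7 libraries was most like that of Cdkn1b by Pearson's r were Fcer1g (r = 0.99), Hvcn1 (0.98) and Map4 (0.98). Those most like Cdkn1a were Golga2 (0.99), Tmco3 (0.99) and Rdh12 (0.98), and those most like Cdkn1c were Ric8b, Ppfibp1 and Elmod3 (each 0.97). These are descriptions over 7 points in which wt_284 is the highest for Cdkn1a and Cdkn1b and the lowest for Cdkn1c, chosen as the highest of many, and no p is given.

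Some exons of 4 of the genes overlap a gene on the opposite strand. Rb1 shares 488 exonic bases with Rcbtb2 and 408 with Lpar6, Rbl2 shares 693 with Aktip and 892 with Gm45464, Cdkn1c shares 625 with Gm44732 and Cdkn1a shares 273 with AC167363.2. The kit marks strand, but the sources used here do not say whether counting used strand, so Rb1 and Rbl2 counts carry that uncertainty. Rcbtb2 had 46.7 to 66.1 CPM in WT and 61.0 to 72.5 CPM in KO, Lpar6 12.6 to 39.9 CPM and 18.6 to 24.7 CPM, and Aktip 15.6 to 32.5 CPM and 16.8 to 27.6 CPM. Gm44732 and AC167363.2 had at most 0.344 CPM in any library.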

How the data were processed

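RNA of sorted LT-HSCs was sequenced from 4 WT and 3 KO mice. Per the labels' protocols, marrow was depleted of lineage-positive cells and sorted on surface antigens including Sca-1, c-kit, CD150 and CD48, and the library kit was SMARTer stranded total RNA, for picogram inputs. The authors deposited estimated counts per gene as whole numbers, without scaling. Cutadapt and Salmon are the tools given, per the submitters' processing notes, and the sources used here give no versions, annotation or way of summing to genes. Each of the 7 columns carries the description of 1 sample. Of 54347 gene identifiers, 98.1% were in GENCODE M21 (GRCm38) with an equal version, and this annotation gave positions, exon lengths and missing symbols.

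Counts were tested with edgeR 4.0.16 (R 4.3.3): genes were kept by filterByExpr, scaled by TMM and fitted with the robust quasi-likelihood method for KO minus WT. P-values were adjusted by Benjamini-Hochberg over all tested genes, with a threshold of 0.05. The SE of a log2 fold change was its size over the root of F, and gave the 95% interval. Levels are CPM with TMM factors, log2 CPM used a prior count of 2, and counting SDs are square roots of counts. A count of 0 allows up to 3 counts. The fit was run on simulated data too, but these held no outlying library like wt_284, so that run does not cover this feature. P-values measure the spread between these mice. The labels call the controls littermates but assign no mouse to a litter, batch or sort day.

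The 8 genes, the pathway and marker lists and the alternatives were chosen with earlier results of these data known. Named genes are all 8, Emcn, the 2 genes of smallest unadjusted p in each pathway list, and the 3 genes most correlated with Cdkn1a, Cdkn1b and Cdkn1c. Kit, Slamf1, Procr, Hlf, Cdkn2a, Cdkn2b and the overlapping genes are named for their place in a list or locus. Meis1 and Mecom were picked from the stem cell markers after the values were seen. The p53 half-site was added to the motif search after the sequences were seen. Alternatives were DESeq2 1.42.0, limma-voom (limma 3.58.1) with quality weights, RLE and upper-quartile factors, a fit that is not robust, no filter, a minimum of 1 CPM in at least 3 libraries, a threshold of 0.1, each mouse left out, mice numbered above 300 only, and the coding length of each gene.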

Additional observations from a re-analysis of the deposited data

How the results depend on the processing

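No paired analysis was possible because mouse numbers are unique and shared by no 2 samples of different groups. Under all alternatives 0 of the 8 genes were called, and the smallest adjusted p of any of them was 0.725. In the 15 alternative fits, fold changes kept their sign for 7 genes. Cdkn1c, at -0.04 with all libraries, turned to 0.068 in limma-voom, 0.055 without ko_314 and 0.16 without wt_312, and the cause was not tested. With each mouse left out it ran from -0.16 to 0.16. Ranges were -2.76 to -1.06 for Cdkn1a, -0.46 to -0.24 for Cdkn1b, -1.39 to -0.52 for Cdkn2c, -0.76 to -0.20 for Cdkn2d, -0.68 to -0.23 for Rb1, 0.01 to 0.29 for Rbl1 and 0.05 to 0.14 for Rbl2. An unadjusted p under 0.05 occurred in 4 of the 15 for Cdkn2c, 3 for Rb1, 2 for Cdkn1a and 0 for the others. In the fits concerned, 679 of 15372 tested genes had such a p in DESeq2, 439 of 15372 in limma-voom and 1779 of 29739 with no filter. It was 470 of 14864 without wt_290, 495 of 15209 without wt_310, 1033 of 15239 without wt_312 and 239 of 16266 without ko_320. All 15 fits draw on the same 7 libraries, so these counts are not independent.

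Over all genes 1 was called with all libraries, 10 in DESeq2, 0 in limma-voom (439 at an unadjusted p under 0.05), 81 with no filter on low counts, 7 with mice above 300 only, and 1 to 3 with each mouse left out. With coding length in place of merged exons, the WT levels per length of 2 of the 8 genes moved by more than 1 SD. These were Rbl1, from 20.6 to 25.4 CPM per kb, and Rbl2, from 23.9 to 36.6 CPM per kb. The 95% intervals of Cdkn1a, Cdkn2c and Cdkn2d reached beyond 2-fold with and without wt_284, and that of Rb1 with it.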

Other observations

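The mitosis transcripts of each library can be set beside Cdkn1c and the ratio of p107 to p130, a comparison chosen after the values were seen. The 12 mitosis genes summed to 3478, 2217, 1544 and 1184 CPM in wt_284, wt_290, wt_310 and wt_312. In the same order Cdkn1c (p57) had 16.1, 19.8, 21.1 and 29.8 CPM. The ratio of p107 to p130 transcripts per length of merged exons was 1.04, 0.906, 0.780 and 0.745 in these libraries. The WT library with the most mitosis transcripts thus had the least p57 transcript and the highest ratio, and wt_312 the reverse. The 16 E2F targets of S phase summed to 2363, 2410, 1784 and 1517 CPM in these WT libraries, so that wt_290 rather than wt_284 had the most. In ko_306, ko_314 and ko_320 the mitosis sums were 1573, 1281 and 1924 CPM, Cdkn1c had 22.6, 18.5 and 22.0 CPM, and the ratio was 0.818, 0.828 and 0.969. Among KO libraries ko_320 was highest in both the mitosis sum and the ratio. Against the WT order, ko_314, with the lowest mitosis sum, had the lowest Cdkn1c. Also against it, ko_306 had a higher mitosis sum than ko_314 but a lower ratio. The neutrophil and monocyte sum was also highest in wt_284 (14789 CPM) and lowest among WT in wt_312 (254 CPM), and neither relation was tested.

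The lowest values of 2 defining stem cell markers, also chosen after the values were seen, were in wt_284. Meis1, a transcription factor of stem cells, had 293 CPM in wt_284 and 452, 486 and 702 CPM across the remaining WT mice, and 515, 641 and 610 CPM in KO. Mecom, which is needed for long-term stem cells, had 215 CPM in wt_284 and 268 to 411 CPM across the remaining WT mice, and 332 to 395 CPM in KO.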
